A study of Rattus norvegicus with 20 samples.

Results

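Heterotrimeric G proteins and the regulators of G protein signalling (RGS) were examined in the medial prefrontal cortex (mPFC) of rats that had been given lysergic acid diethylamide (LSD) or saline. The genes were chosen by symbol, as the α subunits (*Gna* followed by a letter or number), the β subunits *Gnb1* to *Gnb5*, the γ subunits (*Gng* followed by a number or t) and the *Rgs* genes. In all, 55 of the 31038 symbols in the table of counts matched, and 50 of them reached 5 reads in 10 or more of the 20 libraries, as did 16605 genes in the whole table. These 50 are 14 of 16 α, 5 of 5 β, 10 of 12 γ and 21 of 22 *Rgs* symbols, the last of which include the anchor proteins *Rgs7bp* and *Rgs9bp*. The 5 genes that did not pass were *Gnat2* (72 reads over all rats), *Gngt1* (5 reads), *Gnat3* (1 read), *Gng11* and *Rgs21* (0 reads each), and *Rgs11* is not among the symbols.

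A receptor that binds its agonist makes the α subunit of a G protein exchange GDP for GTP, after which α and the paired βγ each act on effectors. The families of α differ in what they act on. Gs and Golf stimulate adenylyl cyclase, Gi, Go and Gz inhibit it or signal largely through βγ, Gq and G11 activate phospholipase Cβ, and G12 and G13 act on the cytoskeleton. RGS proteins speed up the hydrolysis of GTP by α and so end the signal. LSD binds serotonin and dopamine receptors that belong to this receptor class, among them the 5-HT2A receptor of cortical pyramidal neurons, which couples to Gq and G11.

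The animals were male Sprague-Dawley rats, 10 per group, aged 6 to 8 weeks at the start according to the sample labels. The LSD group received 0.16 mg/kg intraperitoneally every other day for 90 days, the controls received saline on the same schedule, and both were then left without injections for 3 weeks by the labels, while the methods of the study give an older age and a longer interval for both groups. Each library held poly(A) RNA from 1 rat, and the reads assigned to genes numbered 16346629 to 25552681 per LSD-treated rat and 11098076 to 24201351 per control. Since whole tissue was sequenced, fewer cells of a type and less RNA per cell cannot be told apart.

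Markers of cortical excitatory neurons such as *Slc17a7*, the vesicular glutamate transporter, were abundant in both groups, with 3507 to 4683 RPM summed over 8 markers in LSD-treated rats and 3592 to 5391 in controls (RPM, reads on a gene scaled to a common library size after TMM normalisation). Markers of striatal medium spiny neurons stood apart in 4 libraries, those of saline rats 2, 8 and 9 and LSD rat 9. The defining striatal markers, among them the dopamine D2 receptor *Drd2* and the adenosine receptor *Adora2a*, summed to 205, 272, 251 and 185 RPM in these rats and to between 98.8 and 159 RPM in the other 16. Of 16 striatal markers tested, all 16 were lower in LSD-treated rats by sign (median −0.43 on the log2 scale), and 1 passed the test. The defining marker *Ido1* had 0 reads in 19 libraries. Results were therefore also computed without these 4 libraries, a choice made after the data were seen, which left 9 LSD-treated rats and 7 controls, and with the striatal marker level as a covariate.

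Most genes that passed the test coded for subunits and were lower after LSD. In edgeR's quasi-likelihood F test, adjusted after Benjamini-Hochberg over all 16605 genes with a threshold of 0.05, 10 of the 50 genes were lower and 4 were higher in LSD-treated rats. Over all genes tested, 8.54% were called lower and 6.48% higher, so the number called higher among the 50 is near the background. Down-regulated were *Gnal*, *Gna12*, *Gnai2*, *Gnas*, *Gnb2*, *Gng8*, *Gng3*, *Gng13*, *Rgs19* and *Rgs12*, and up-regulated were *Gnai1*, *Rgs6*, *Rgs7bp* and *Rgs17*. The changes were small, with log2 fold changes between −0.51 and 0.37 for the 14 genes, and no gene of the 50 had ranges of the 10 LSD-treated and 10 control rats that did not overlap, against 0.193% of all genes.

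**Figure D1:**
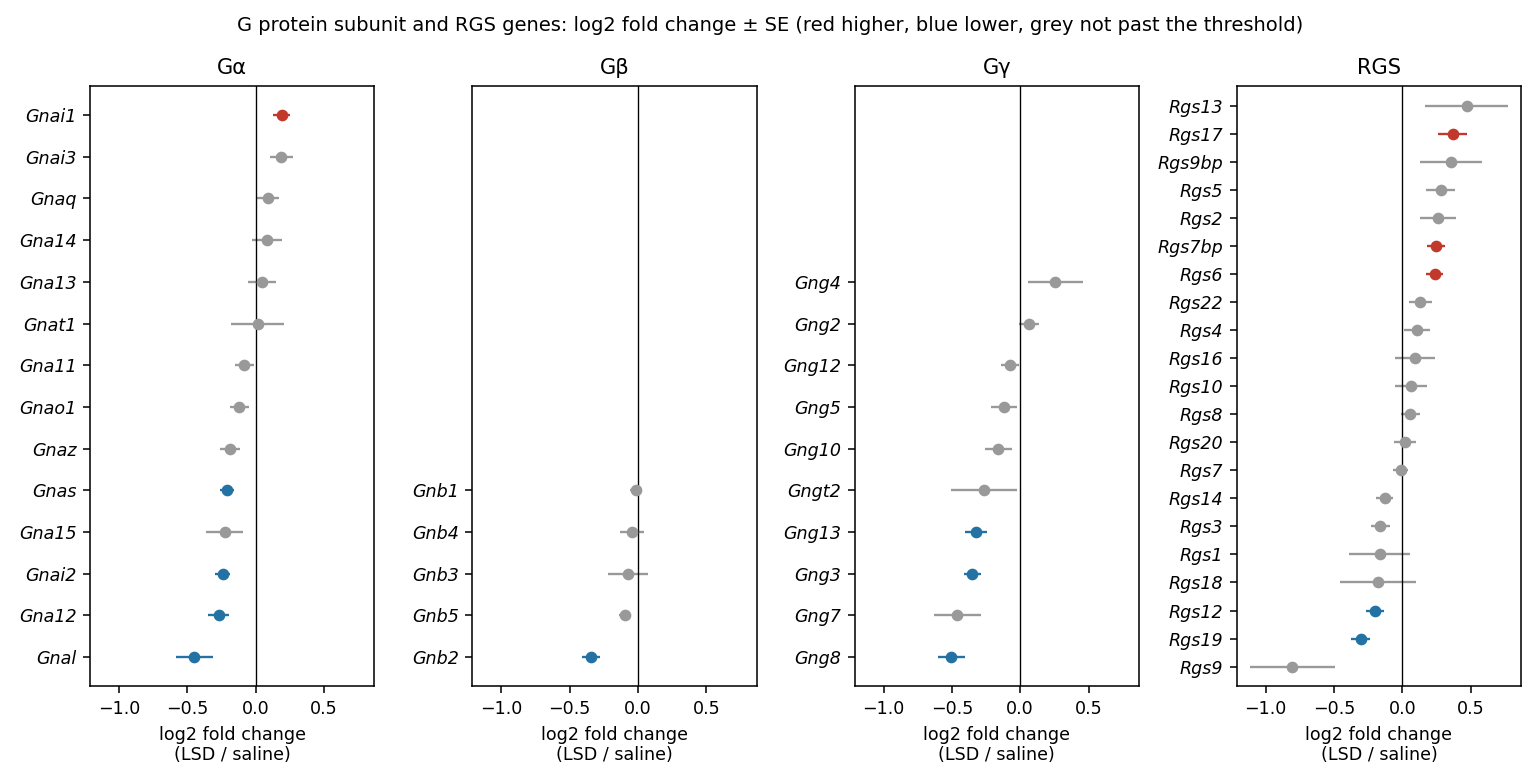
Log2 fold change (LSD over saline, x axis) with its SE for the 50 genes, in a panel each for α, β, γ and RGS, 10 rats per group. Red and blue points are the 4 genes called higher and the 10 called lower by edgeR, and grey points did not pass the threshold. In this fit 5 of 5 β (3 of 5 with scaling by total counts) and 8 of 10 γ genes lie below 0, and 13 of 21 RGS genes lie above it.

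By class, 4 of 14 α genes were called lower and 1 higher, 1 of 5 β lower and 0 higher, 3 of 10 γ lower and 0 higher, and 2 of 21 RGS lower and 3 higher. Over all genes, 8.54% were called lower and 6.48% higher. The 2 of 21 RGS genes lower and the 1 of 14 α genes higher are near these shares. DESeq2 called 0 β and 0 γ genes higher too, and in these 2 fits 0 genes of either class had an unadjusted p under 0.05 in that direction. Without the 4 libraries highest in striatal markers, 1 γ gene did, *Gng2* (0.17, edgeR, Benjamini-Hochberg adjusted p = 0.0707). The median log2 fold change was −0.10 for α, −0.07 for β, −0.21 for γ and 0.06 for RGS, beside 0.00 for all genes tested. These medians moved between fits, for γ to −0.13 without the 4 libraries highest in striatal markers and −0.04 with the striatal covariate, for α to −0.17 in both, for β to −0.11 with the covariate, and for RGS to 0.10 in both and 0.02 with the span offsets described below. With scaling by total counts, which put the median of all genes at 0.05, they were −0.05 for α, −0.02 for β, −0.17 for γ and 0.10 for RGS. Reads summed over the α class were 2891 ± 131 RPM in LSD-treated rats and 3253 ± 204 RPM in controls (mean ± SD, n = 10 each), and the corresponding sums were 736 ± 38.9 and 807 ± 48.2 RPM for β and 633 ± 58.0 and 718 ± 86.4 RPM for γ. The RGS sum was 1056 ± 62.1 RPM in LSD-treated rats and 1023 ± 87.8 RPM in controls. The ranges of the groups overlapped in every class, from 2733 to 3196 RPM with LSD and from 3019 to 3543 RPM with saline for α. For γ, saline rats 2, 8 and 9 stood apart at 825, 790.4 and 889 RPM, and without the 4 libraries the γ sum was 626 ± 57.1 RPM with LSD (n = 9) and 667 ± 23.6 RPM with saline (n = 7). The RGS sum was then 1063 ± 61.1 and 986 ± 70.8 RPM. These sums follow the genes with most reads and were not tested.

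**Figure D2:**
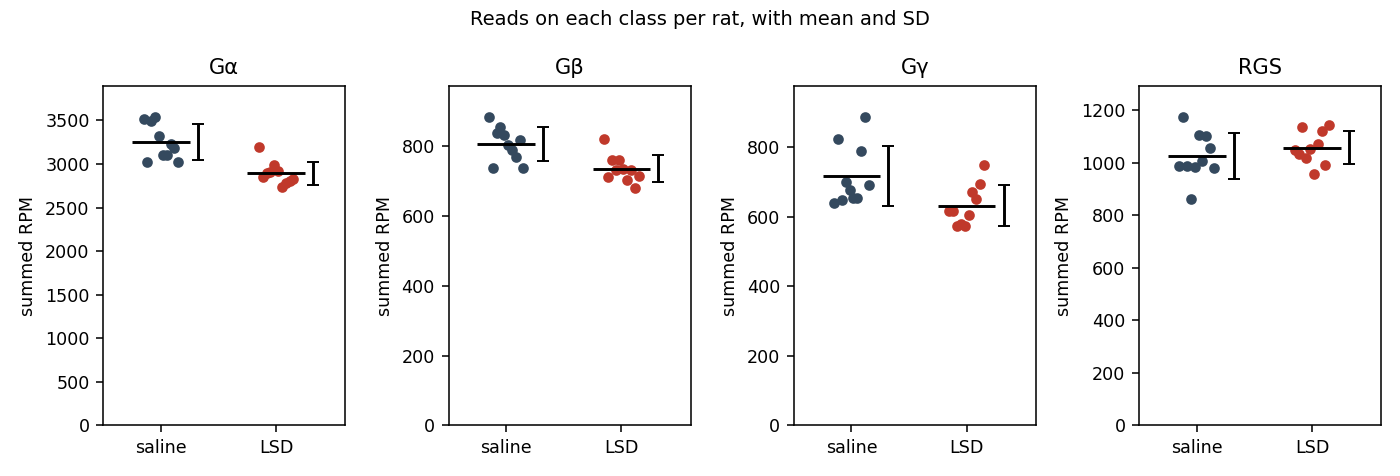
Summed RPM (y axis, from 0) of the α, β, γ and RGS genes that passed the filter in each of 10 saline and 10 LSD-treated rats, with points for rats, horizontal lines for means and bars for ± 1 SD. The mean of the α sum is 3253 RPM with saline and 2891 RPM with LSD, and the RGS sums of the groups cover each other.

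*Gnas* codes for the Gs α subunit, which stimulates adenylyl cyclase. It had 816 RPM in the lowest LSD-treated rat, 854 in the median and 984 in the highest, against 892, 1025 and 1111 RPM in controls, a log2 fold change of −0.21 ± 0.051 (SE; edgeR, Benjamini-Hochberg adjusted p = 0.0111). All 10 LSD-treated rats lay below the control median and 8 below the lowest control. *Gnal*, which codes for Golf, the stimulatory subunit of olfactory neurons and of the striatum, had 43.4, 63.7 and 74.9 RPM with LSD and 55.6, 77.4 and 119 RPM with saline. All 10 LSD-treated rats again lay below the control median, and the control range was the wider one. Its log2 fold change of −0.45 ± 0.14 (edgeR, Benjamini-Hochberg adjusted p = 0.0286) lost the threshold when any one of LSD rat 4 (−0.42, adjusted p = 0.0538), LSD rat 8 (−0.40, 0.0568), saline rat 4 (−0.42, 0.0533) or saline rat 9 (−0.41, 0.0538) was left out. Without the 4 libraries highest in striatal markers it was −0.26 (adjusted p = 0.137), and with the striatal covariate −0.21 (adjusted p = 0.196). Part of the annotated span of *Gnal* is shared with *Chmp1b* (−0.01, adjusted p = 0.949).

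Members of the inhibitory family went in opposite directions. *Gnai2* had 388, 418 and 466 RPM (lowest, median and highest) in LSD-treated rats and 445, 498 and 574 RPM in controls, and 7 LSD-treated rats lay below the lowest control. Its log2 fold change was −0.24 ± 0.053 (edgeR, Benjamini-Hochberg adjusted p = 0.00755). *Gnai1* was higher instead, with 130, 150 and 165 RPM against 109, 132 and 153 RPM, and 9 of 10 LSD-treated rats lay above the control median. Its log2 fold change was 0.19 ± 0.059 (edgeR, Benjamini-Hochberg adjusted p = 0.0335), and this call rested on single libraries. It was lost without any one of LSD rats 3 (0.19, adjusted p = 0.0502), 5 (0.19, 0.0504), 7 (0.18, 0.0571) and 8 (0.17, 0.0669) or of saline rats 3 (0.19, 0.0515), 4 (0.18, 0.0554), 5 (0.18, 0.0588), 8 (0.16, 0.0520) and 9 (0.16, 0.0546). The remaining members did not pass the test: *Gnai3* at 0.19 (adjusted p = 0.122), *Gnao1*, which codes for the abundant Go subunit of neurons, at −0.12 (0.232), *Gnaz* at −0.19 (0.0776) and the photoreceptor transducin *Gnat1* at 0.02 (0.968).

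*Gna12*, which codes for the α subunit of G12, had 285, 338 and 376 RPM with LSD and 322, 423 and 498 RPM with saline. All 10 LSD-treated rats lay below the control median and 4 below the lowest control, and the log2 fold change was −0.27 ± 0.076 (edgeR, Benjamini-Hochberg adjusted p = 0.0219). It was −0.22 (adjusted p = 0.0600) without the 4 libraries highest in striatal markers and −0.19 (0.0869) with the striatal covariate. *Gna13*, from the same family, was at 0.05 (adjusted p = 0.803).

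The subunits that couple to the 5-HT2A receptor were not detectably different. *Gnaq* had 63.7, 76.6 and 87.2 RPM in LSD-treated rats and 45.1, 74.3 and 81.1 RPM in controls, with a log2 fold change of 0.09 ± 0.083 (edgeR, Benjamini-Hochberg adjusted p = 0.511). *Gna11* had 79.5, 98.7 and 113 RPM against 88.2, 104 and 121 RPM, with a log2 fold change of −0.08 ± 0.072 (edgeR, Benjamini-Hochberg adjusted p = 0.464). The ranges of the groups overlapped for both genes, and the sign of *Gnaq* changed with the span offsets described below (−0.01) and with the striatal covariate (−0.04). *Gna14* and *Gna15*, the other genes of the family, were at 0.08 and −0.23 and did not pass the test. Among all reads on α genes, the Gq and G11 family took 6.35 ± 0.407% in LSD-treated rats and 5.71 ± 0.548% in controls, the Gi, Go and Gz family 49.4 ± 0.566% and 48.0 ± 1.98%, the Gs and Golf family 32.2 ± 1.28% and 33.5 ± 1.91%, and G12 and G13 12.1 ± 0.870% and 12.9 ± 1.63% (mean ± SD, n = 10 each, not tested). These are shares of reads and do not account for transcript length.

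*Gnb2* was the only β gene past the threshold. It forms a tight dimer with a γ subunit, which binds ion channels and other effectors once α is released. It had 197, 207 and 269 RPM with LSD (lowest, median and highest) and 217, 273 and 309 RPM with saline, and 8 of 10 LSD-treated rats lay below the lowest control. The log2 fold change was −0.34 ± 0.068 (edgeR, Benjamini-Hochberg adjusted p = 0.00565). *Gnb1* was at −0.02 (adjusted p = 0.830), *Gnb3* at −0.07, *Gnb4* at −0.04 and *Gnb5*, the partner of the R7 subfamily of RGS proteins, at −0.10 (0.156), so that 5 of 5 β genes had a negative sign in this fit, against 3 of 5 with scaling by total counts and 4 of 5 with span offsets or the striatal covariate.

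Of the γ genes, 3 were lower. *Gng3*, which codes for a γ subunit of neurons, had the smallest adjusted p-value of the 50 genes. It ranged from 142 to 194 RPM with LSD (median 161) and from 178 to 260 RPM with saline (median 204), and 9 of 10 LSD-treated rats lay below the lowest control. Its log2 fold change was −0.35 ± 0.064 (edgeR, Benjamini-Hochberg adjusted p = 0.00408). *Gng8*, a γ subunit known from olfactory and vomeronasal neurons, ranged from 5.49 to 10.5 RPM with LSD (median 8.52) and from 9.43 to 14.9 RPM with saline (median 11.7), on 109 to 296 reads per library. In 8 of 10 LSD-treated rats it was below the lowest control. The log2 fold change of −0.51 ± 0.10 (edgeR, Benjamini-Hochberg adjusted p = 0.00565) was the most negative among the genes called. *Gng13*, known from taste cells and the retina, ranged from 26.2 to 36.2 RPM (median 29.8) against 28.9 to 47.6 RPM (median 36.9). All 10 LSD-treated rats lay below the control median, and the log2 fold change was −0.32 ± 0.079 (edgeR, Benjamini-Hochberg adjusted p = 0.0118). Part of the span of *Gng3* is shared with *Bscl2* (−0.13, adjusted p = 0.0944) and of *Gng13* with *Chtf18* (−0.23, 0.118), and without a known strand setting the reads of such pairs cannot be told apart. The same holds for *Gnas*, *Gng7* and *Rgs9*, each of which overlaps a counted gene for a long noncoding RNA. It also holds for *Gnai3*, *Gng5*, *Gngt2* and *Rgs20*, each of which overlaps a counted protein-coding gene.

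**Figure D3:**
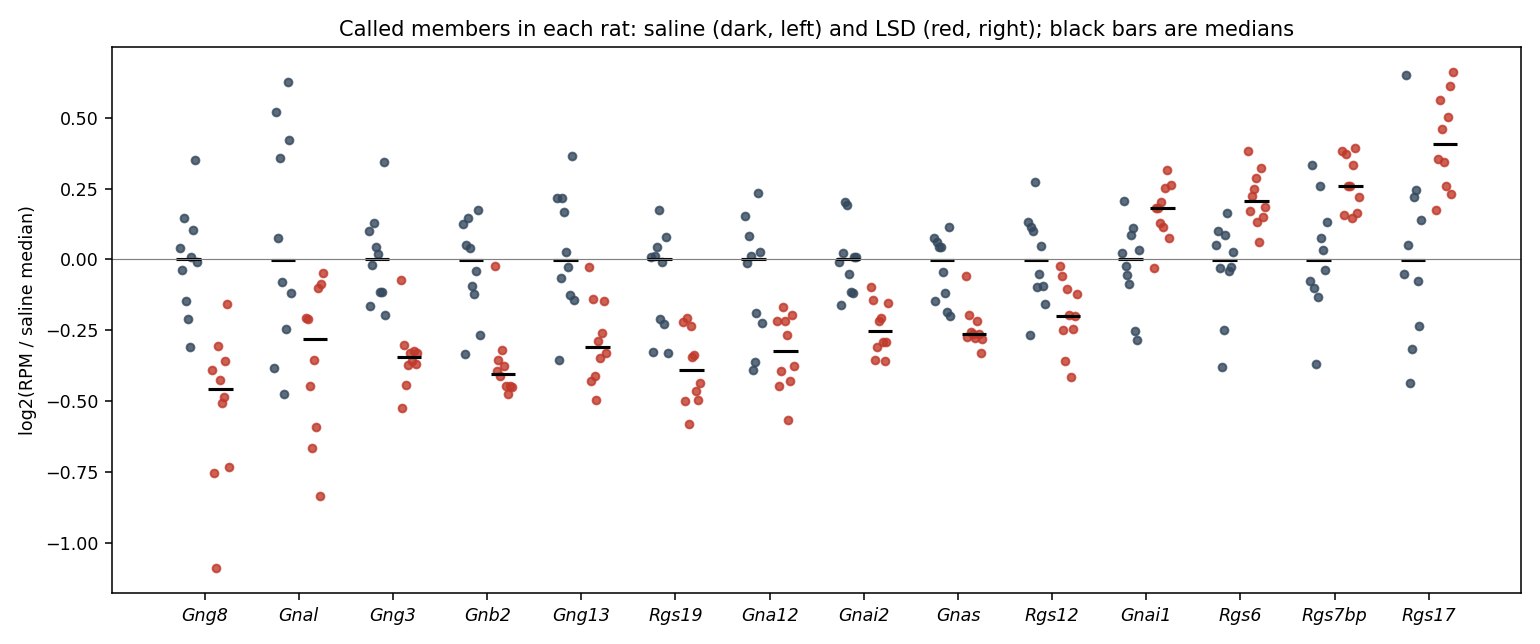
RPM of the 14 called genes in each rat, as log2 of the ratio to the control median (y axis), with saline rats in dark points and LSD-treated rats in red points and black bars for medians. The 10 genes at left were called lower and the 4 at right higher, and in each of them the ranges of the groups overlap.

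The remaining γ genes did not pass the test, with *Gngt2* at −0.26, *Gng10* at −0.16, *Gng5* at −0.12, *Gng12* at −0.07, *Gng2* at 0.06 and *Gng4* at 0.26 (adjusted p = 0.414). *Gng7*, which pairs with Golf in striatal neurons, is described with *Rgs9*, the RGS protein of dopamine signalling in the striatum, since both were highest in the same 4 libraries as the striatal markers. They were singled out after their values were seen. *Gng7* had 214, 246 and 242 RPM in saline rats 2, 8 and 9, 166 RPM in LSD rat 9 and between 87.0 and 131 RPM in the other 16 rats. *Rgs9* had 26.8, 38.7 and 41.8 RPM in the same saline rats, 24.2 RPM in LSD rat 9 and between 6.91 and 13.3 RPM in the others. For both genes these 4 rats were therefore the highest of all 20, which did not hold for *Gnal*, where saline rat 4 had 99.1 RPM and LSD rat 9 had 72.8 RPM.

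Over all 20 rats, the log2 fold change of *Gng7* was −0.46 ± 0.17 (edgeR, Benjamini-Hochberg adjusted p = 0.0721) and that of *Rgs9* −0.80 ± 0.31 (edgeR, Benjamini-Hochberg adjusted p = 0.0822). Without the 4 libraries they were −0.15 (adjusted p = 0.185) and −0.24 (0.182), and with the striatal covariate −0.03 and 0.02. Leaving out LSD rat 9 alone took both past the threshold, at −0.54 for *Gng7* (adjusted p = 0.0368) and −1.04 for *Rgs9* (0.0266), and leaving out saline rat 6 did so for *Gng7* (−0.52, 0.0435). Both genes were singled out for their values in these libraries, so a smaller change in these 2 fits follows from that choice. *Gng3* was at −0.33 without the 4 libraries and −0.35 with the covariate, and *Gng8* at −0.48 and −0.40, past the threshold in each. Saline rat 9, 1 of the 4, was the highest of all 20 rats for *Gng3* (260 RPM) and *Gng8* (14.9 RPM).

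**Figure D4:**
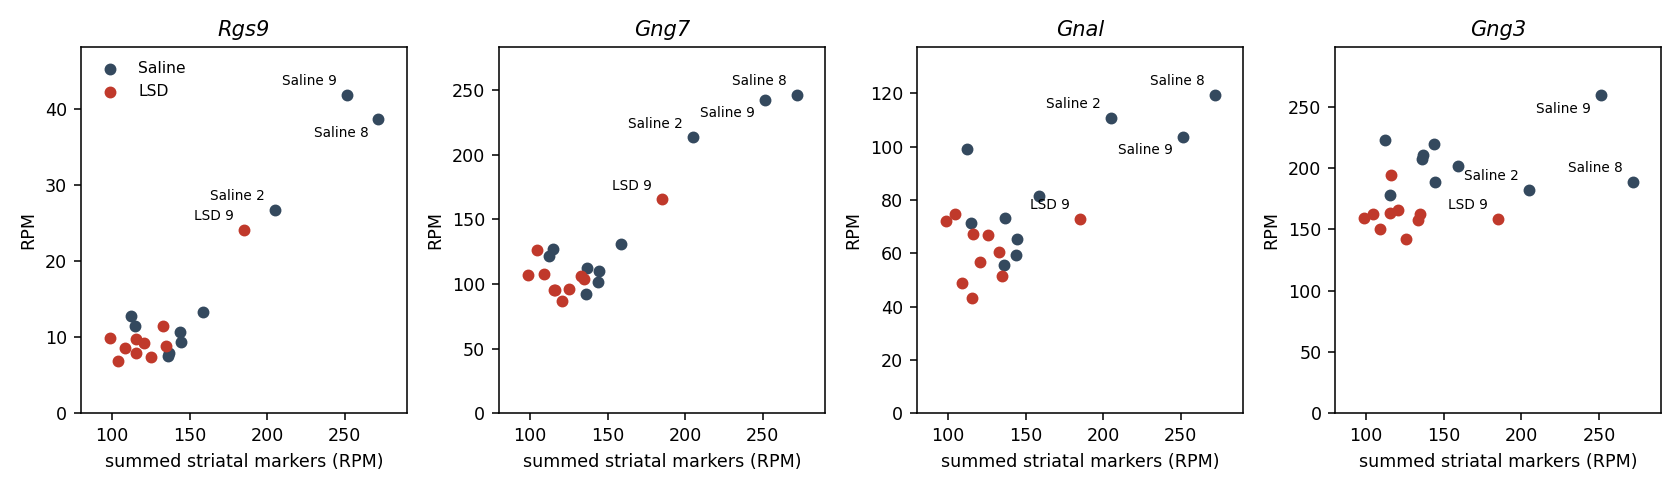
RPM of *Rgs9*, *Gng7*, *Gnal* and *Gng3* (y axes) against the summed RPM of the defining striatal markers (x axis) in 20 rats, with saline dark and LSD red and the 4 libraries highest in striatal markers named. *Rgs9* and *Gng7* are highest in these 4 rats, while for *Gng3* 9 LSD-treated rats lie below the lowest control.

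Among the RGS genes, changes in both directions were found within one subfamily. *Rgs17* and *Rgs19* belong to the RZ subfamily, which acts on Gi, Go and Gz. *Rgs19* was lower, with 26.8 to 34.6 RPM in LSD-treated rats (median 30.5) and 31.8 to 45.1 RPM in controls (median 40.0), and 7 LSD-treated rats lay below the lowest control. The log2 fold change was −0.31 ± 0.069 (edgeR, Benjamini-Hochberg adjusted p = 0.00852). *Rgs17* was higher, with 19.9 to 27.9 RPM (median 23.4) against 13.04 to 27.7 RPM (median 17.6). All 10 LSD-treated rats lay above the control median, but only 1 above the highest control, and the log2 fold change was 0.37 ± 0.11 (edgeR, Benjamini-Hochberg adjusted p = 0.0238). *Rgs20*, the third gene of the subfamily, was at 0.02 (adjusted p = 0.916).

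The R7 subfamily consists of RGS proteins that are bound to Gβ5 and are held at the membrane by an anchor. *Rgs6* ranged from 22.7 to 28.4 RPM with LSD (median 25.1) and from 16.7 to 24.4 RPM with saline (median 21.8), with 7 LSD-treated rats above the highest control. This was a log2 fold change of 0.24 ± 0.062 (edgeR, Benjamini-Hochberg adjusted p = 0.0155). *Rgs7bp*, an anchor of the subfamily, ranged from 200.2 to 238 RPM (median 216) against 140 to 228 RPM (median 181), with all 10 LSD-treated rats above the control median. On the log2 scale the fold change was 0.25 ± 0.069 (edgeR, Benjamini-Hochberg adjusted p = 0.0214). *Rgs7* itself was at −0.01 (adjusted p = 0.908), and *Rgs9bp*, with 2 to 9 reads per library, at 0.35 (0.421). *Rgs9*, described above with *Gng7*, also belongs to this subfamily and had the opposite sign, at −0.80 (0.0822).

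*Rgs12* of the R12 subfamily, which also carries domains that bind other signalling proteins, ranged from 82.0 to 108 RPM with LSD (median 95.3) and from 91.0 to 132 RPM with saline (median 109). All 10 LSD-treated rats lay below the control median, and the log2 fold change was −0.20 ± 0.064 (edgeR, Benjamini-Hochberg adjusted p = 0.0372). This call was lost without any one of LSD rats 3 (−0.19, adjusted p = 0.0598), 4 (−0.18, 0.0697), 6 (−0.20, 0.0520), 7 (−0.18, 0.0677), 8 (−0.19, 0.0641) and 9 (−0.20, 0.0513) or of saline rats 1 (−0.18, 0.0733), 3 (−0.19, 0.0715), 4 (−0.19, 0.0709) and 5 (−0.17, 0.0808). *Rgs14* was at −0.13 and *Rgs10* at 0.06, and neither passed the test.

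The R4 subfamily of small RGS proteins had 0 genes past the threshold out of 9 tested by edgeR, and 0 by DESeq2, which gave *Rgs1*, *Rgs13* and *Rgs18* no adjusted p, while *Rgs5* and *Rgs3* had an unadjusted p under 0.05 in edgeR. *Rgs4*, abundant in cortical pyramidal neurons, had 246 to 390.1 RPM in LSD-treated rats (median 312) and 190.0 to 366 RPM in controls (median 287), a log2 fold change of 0.11 ± 0.099 (edgeR, Benjamini-Hochberg adjusted p = 0.498). *Rgs2*, which acts mainly on Gq, was at 0.26 (adjusted p = 0.190), *Rgs5*, a gene of pericytes, at 0.28 (0.0810), *Rgs8* at 0.06, *Rgs16* at 0.09 and *Rgs3* at −0.16 (0.117). *Rgs1* (2 to 19 reads per library), *Rgs13* (0 to 19 reads) and *Rgs18* (3 to 20 reads) were at −0.17, 0.47 and −0.18 with SE between 0.22 and 0.30, so that changes of the size found in the called genes were not detectable at this depth. *Rgs22*, of no named subfamily here, was at 0.13 (adjusted p = 0.322).

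Without the 4 libraries highest in striatal markers, 9 of 49 genes were called lower and 7 higher, beside 10.4% and 10.5% of the 16235 genes tested, and *Rgs9bp* did not pass the filter. This included 12 of the 14 genes called over all rats, with *Gna12* and *Gnal* lost and *Gnai3* (0.25, adjusted p = 0.0445), *Gnaz* (−0.23, 0.0271), *Rgs10* (0.24, 0.0448) and *Rgs2* (0.40, 0.0499) gained by edgeR. With the striatal covariate, 9 were called lower and 4 higher, beside 9.19% and 6.99% of all genes, with 11 of the 14 genes shared. *Gnai1* was lost in that fit (0.14, adjusted p = 0.111) along with *Gna12* and *Gnal*. Of 6 interneuron markers, *Gad2* and *Vip* were called higher and *Slc32a1* and *Sst* lower. Of the 8 oligodendrocyte markers, 1 was called lower and all 8 were lower by sign (median log2 fold change −0.39), and their sum ranged from 2407 to 6125 RPM in LSD-treated rats and from 2447 to 7954 RPM in controls. Of 9 endothelial and mural markers tested, *Kcnj8* was called lower by edgeR (−0.45, adjusted p = 0.0188) and 8 were lower by sign (median −0.23). Of 6 astrocyte markers, *Slc1a2* was called higher (0.41, 0.0423) by edgeR, and 2 were lower by sign, *Gfap* (−0.17) and *Aldh1l1* (−0.08). Of the 8 cortical excitatory markers, *Rorb* was called higher by edgeR (0.24, adjusted p = 0.0156), and 4 were lower by sign. The part of these cell types in the results was not tested.

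The span of a gene, the distance between its annotated ends on the GRCr8 assembly, also moved with the calls. The 4 genes called higher spanned 84116 to 651590 bases (median 100132), and the 10 called lower 1767 to 140254 bases (median 14531), beside a median of 24514 bases over all genes with a span. Across all genes the log2 fold change rose with span (Spearman's rank correlation 0.36 over 14929 genes, which are not independent), and over the 50 genes the rank correlation was 0.21. Offsets that remove each rat's trend with span left 0 genes called higher and 12 lower, beside 4.19% and 6.24% of all genes, and 5 genes were higher with an unadjusted p under 0.05. The log2 fold changes under these offsets were 0.12 for *Gnai1* (adjusted p = 0.139), 0.12 for *Rgs6* (0.205), 0.17 for *Rgs7bp* (0.0854) and 0.30 for *Rgs17* (0.0549). All 10 genes called lower remained so, and *Gnao1* (−0.20, adjusted p = 0.0465) and *Rgs3* (−0.25, 0.0347) were added by edgeR. By construction these offsets lower the values of long genes and raise those of short ones. *Gnao1* spans 157650 bases and *Rgs3* 139859 bases, so the direction in which they and the 4 genes called higher moved was set by their length.

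**Figure D5:**
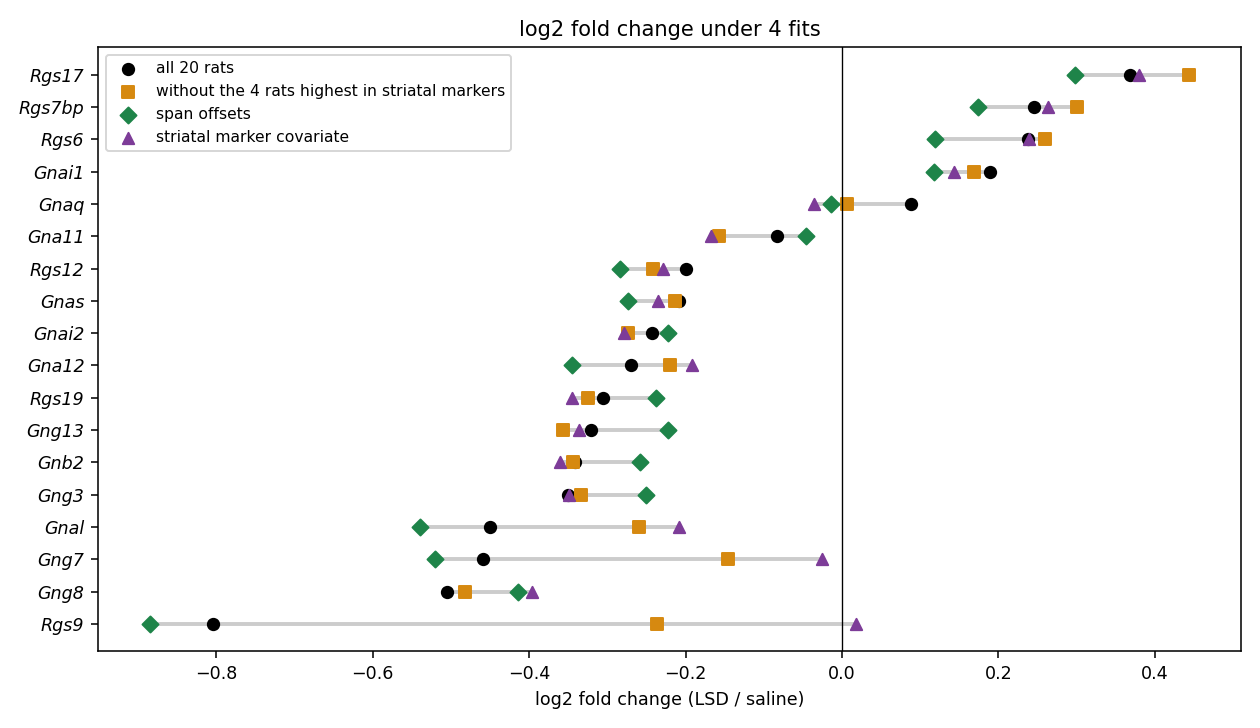
Log2 fold change (x axis) of the 14 called genes, *Gnaq*, *Gna11*, *Gng7* and *Rgs9* in 4 fits, over all 20 rats (black), without the 4 rats highest in striatal markers (orange), with span offsets (green) and with a striatal marker covariate (purple). *Rgs9* and *Gng7* move furthest between fits, and the 4 genes called higher lie nearest to 0 with span offsets.

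To show what stands at the start of genes that were called in opposite directions, the RefSeq sequence (GRCr8) from 250 bases before to 50 after the start of the gene is printed for the genes with the smallest p-values in each direction among those with an entry, *Gng3* and *Gnb2* (lower) and *Rgs6* and *Rgs7bp* (higher). *Gng3* lies at chr1:215162669-215162968 (minus strand), *Gnb2* at chr12:24795529-24795828 (plus), *Rgs6* at chr6:107996245-107996544 (plus) and *Rgs7bp* at chr2:37965204-37965503 (minus), and each is written 5′ to 3′ on the strand of its gene. Capitals mark GC boxes (GGGCGG on either strand) and half-sites of the cAMP response element (TGACG on either strand).
Gng3: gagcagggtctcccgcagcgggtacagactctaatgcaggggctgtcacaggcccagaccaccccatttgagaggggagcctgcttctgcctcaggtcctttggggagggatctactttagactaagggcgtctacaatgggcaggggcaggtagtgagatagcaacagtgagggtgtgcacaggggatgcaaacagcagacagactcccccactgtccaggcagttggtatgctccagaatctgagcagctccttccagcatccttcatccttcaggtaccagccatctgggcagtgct
Gnb2: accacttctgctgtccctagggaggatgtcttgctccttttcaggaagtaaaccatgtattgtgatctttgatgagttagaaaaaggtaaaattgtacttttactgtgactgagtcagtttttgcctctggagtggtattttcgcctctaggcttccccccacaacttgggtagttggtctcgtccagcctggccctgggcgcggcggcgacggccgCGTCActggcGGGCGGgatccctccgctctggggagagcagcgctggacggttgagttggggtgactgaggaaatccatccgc
Rgs6: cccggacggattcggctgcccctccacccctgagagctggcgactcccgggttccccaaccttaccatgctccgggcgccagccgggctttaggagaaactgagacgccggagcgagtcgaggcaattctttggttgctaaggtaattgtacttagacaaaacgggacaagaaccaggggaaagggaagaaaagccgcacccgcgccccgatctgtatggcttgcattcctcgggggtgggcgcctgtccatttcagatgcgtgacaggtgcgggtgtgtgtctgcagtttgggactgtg
Rgs7bp: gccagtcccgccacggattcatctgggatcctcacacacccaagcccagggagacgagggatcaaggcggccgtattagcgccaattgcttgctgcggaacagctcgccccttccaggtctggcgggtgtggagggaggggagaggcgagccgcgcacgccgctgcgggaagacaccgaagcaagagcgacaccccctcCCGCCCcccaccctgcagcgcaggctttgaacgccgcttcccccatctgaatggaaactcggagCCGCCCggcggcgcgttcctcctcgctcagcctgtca

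The *Gng3* window held 0 GC boxes and had a ratio of observed to predicted CpG dinucleotides of 0.121, against 0.668 for *Gnb2*, 0.783 for *Rgs6* and 0.830 for *Rgs7bp*. *Gnb2* had 1 GC box and 1 half-site, *Rgs6* had 0 of either, and *Rgs7bp* had 2 GC boxes. In all, 41 of the 50 genes had an entry, and those without one are *Gnai2*, *Gnai3*, *Gnat1*, *Gnaz*, *Gnb3*, *Gng8*, *Gngt2*, *Rgs20* and *Rgs22*. A GC box was present in 24 of the 41 (58.5%), beside 34.9% of 27457 promoters of the same length, and in 5 of 8 genes called lower and 3 of 4 called higher. The half-site was present in 11 of 41 (26.8%, beside 22.0%), with 2 of 8 and 0 of 4, and the TATA box TATAAA, searched on both strands, in 5 of 41 (12.2%, beside 14.3%). The median GC content was 63.3% for the 41 windows and 52.3% for all, with 61.5% (55.0 to 74.0%) for the 8 genes called lower and 69.2% (60.0 to 80.3%) for the 4 called higher. The 27457 promoters were not limited to genes that passed the read filter, as the 41 were, so the 2 sets are unlike in this respect. These matches describe the letters of the windows only.

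Other genes of the pathway were counted in the same fit from a list of 49 symbols, 45 of which were tested. In total 7 were called higher and 3 lower, beside 6.48% and 8.54% of all genes, so the number lower is near the background, and the median of their log2 fold changes was 0.06. Of 23 effectors, 4 rose and 1 fell. The phospholipases *Plcb1* and *Plcb4*, which Gq activates, were at 0.35 ± 0.077 and 0.22 ± 0.060 (edgeR, Benjamini-Hochberg adjusted p = 0.00807 and 0.0190), with means of 172 against 135 RPM and 67.8 against 58.1 RPM. *Plcb2* and *Plcb3*, the other phospholipases of the list, were at 0.08 and 0.05 and did not pass the test. The potassium channel *Kcnj3*, opened by βγ, was at 0.25 (adjusted p = 0.0323), and *Arhgef12*, an effector of G12 and G13, at 0.24 (0.0498). The other potassium channels of the list, *Kcnj5*, *Kcnj6* and *Kcnj9*, were at 0.27, 0.23 and −0.12 and did not pass the test. *Adcy5*, the adenylyl cyclase that Golf stimulates in the striatum, was lower at −0.29 ± 0.092 (edgeR, Benjamini-Hochberg adjusted p = 0.0358). This value includes the 4 libraries highest in striatal markers, and how far it moves with them was not tested. The values of all 45 genes came from the fit over all rats with no covariate or offsets. With span offsets, 0 of the 50 G protein and RGS genes were called higher. Whether the 7 calls higher in this list hold with those offsets was not tested. Nor were these calls tested without the 4 libraries or with rats left out singly.

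Of 8 receptor kinases and arrestins tested, 1 was lower, *Grk6* (−0.16, adjusted p = 0.0274), and *Arrb1* and *Arrb2* were at 0.06 and −0.18 without passing the test. Of 14 exchange factors, dissociation inhibitors and chaperones tested, 3 were higher and 1 lower. The receptor-sorting proteins *Gprasp1* and *Gprasp2* were at 0.33 (adjusted p = 0.00755) and 0.27 (0.00917), and *Gpsm2*, which binds Gi subunits in their GDP form, was at 0.31 (0.0104). *Rap1gap* was lower at −0.24 (0.0488). The chaperones of α subunits, *Ric8a* and *Ric8b*, were at −0.03 and 0.06, and *Gpr158*, a receptor that recruits R7 RGS proteins, at 0.22 (0.0730), and none of the 3 passed the test.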

How the data were processed

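RNA was measured in the mPFC of 20 rats, 1 library per rat, and groups were taken from the sample labels. The authors aligned the reads to rn6 with HISAT2, counted them per gene with HTSeq and deposited raw counts, with no normalisation or filter. Versions, annotation and strand setting are not given in the sources used here. The table ends with 5 entries without a gene name (25.5% to 29.0% of the counts per library), which were left out, and no libraries were identical.

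Counts were tested with edgeR 4.0.16 in R 4.3.3 (TMM, quasi-likelihood F test, no covariate, Benjamini-Hochberg adjustment, threshold 0.05) after a filter that asks for 5 or more reads in 10 or more libraries. RPM are TMM-normalised, and the SE was derived from the log2 fold change and F. The test was checked on simulated counts. Alternatives were DESeq2 1.42.0, other scalings and filters, the replicate number as a block, offsets for gene span (50 bins, smoothed over 5, centred), a striatal marker covariate, each rat left out in turn, and the 4 libraries highest in striatal markers left out, with filters applied again.

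The members and gene lists were chosen with earlier results of these data known. All called genes, *Gnaq* and *Gna11* are given in full. LSD-treated and saline rats with the same number correlated with a mean r of 0.15 (−0.26 to 0.47), with 6 of 10 pairs over 0.1. The mean r was −0.016 for those with different numbers. The labels do not state that the numbers pair the rats. The main fit had no block, and fits with the replicate block are given as alternatives. Precision is limited by the spread between 10 rats per group.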

Additional observations from a re-analysis of the deposited data

Results flagged for a closer look

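In each group of 10 rats, the highest and lowest rat was compared with its nearest neighbour for 18 genes, on log2(RPM + 1), and the gap was divided by the range of the group. It was over Dixon's critical value for 10 samples in 5 of 36 groups examined. The rate of about 1 in 20 by chance holds for independent groups chosen beforehand. These genes share the same rats, and *Gng7* and *Rgs9* were singled out after their values were seen, so the count cannot be set against that rate. LSD rat 1 was the highest LSD-treated rat for *Gnas* (984 RPM, next 895, ratio 0.504), *Gnb2* (269 RPM, next 219, ratio 0.662) and *Gng3* (194 RPM, next 166, ratio 0.510), 3 genes that were called lower after LSD. Without this rat the log2 fold changes were −0.23 for *Gnas*, −0.38 for *Gnb2* and −0.38 for *Gng3*. LSD rat 9 was the highest LSD-treated rat for *Rgs9* (24.2 RPM, next 11.5, ratio 0.606) and is 1 of the 4 libraries highest in striatal markers. Saline rat 9, another of these, was the lowest control for *Gnaq* (45.1 RPM, next 64.8, ratio 0.617), and without it the log2 fold change of *Gnaq* was 0.03.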

How the results depend on the processing

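Over all 50 genes, 4 were called higher and 10 lower. The number higher was 0 with span offsets, 1 with span offsets and the replicate block, 0 with the striatal covariate and the replicate block (5 at an unadjusted p under 0.05, as with span offsets), and 7 without the 4 libraries highest in striatal markers. The number lower was 4 with the striatal covariate and the replicate block. Both counts fell in that fit although several log2 fold changes were as large as over all rats without these terms, as for *Gnai2* (−0.27, adjusted p = 0.0549), *Gnas* (−0.24, 0.0510), *Rgs12* (−0.23, 0.120), *Rgs6* (0.24, 0.146), *Rgs7bp* (0.28, 0.107) and *Rgs17* (0.41, 0.0853), while *Gng8* (−0.43, 0.0689), *Gna12* (−0.10), *Gnai1* (0.13) and *Gnal* (−0.08) were nearer to 0. With each rat left out in turn, 3 to 6 genes were higher and 8 to 11 lower, and *Gna12*, *Gnai2*, *Gnas*, *Gnb2*, *Gng3*, *Gng8*, *Gng13*, *Rgs6*, *Rgs7bp*, *Rgs17* and *Rgs19* passed in all 20 fits. DESeq2 called 4 higher and 11 lower (*Gng7* gained), scaling by total counts 4 and 8 (*Gnal* and *Rgs12* lost, median of all genes 0.05), and no filter on low counts 4 and 9 (*Rgs12* lost). In 11 alternative fits (rats left out singly not counted), 14 of the 50 genes changed sign at least once, and 0 of the 14 called genes did. Among the genes given in full, signs changed for *Gnaq* (−0.0138 with span offsets, −0.00996 with span offsets and the block, and −0.0357 with the striatal covariate), *Gng7* (0.0206 with the striatal covariate and the block) and *Rgs9* (0.0183 with the striatal covariate). The replicate block alone gave 6 higher and 12 lower, with *Gnai3*, *Gnaz*, *Rgs5* and *Rgs9* gained, and 3 of 20 libraries correlated best with the rat of the same number. Shares of all genes called are given above for the main fit, the span offsets, the striatal covariate and the fit without the 4 libraries. For the other fits they are not given, so a rise or fall in these counts cannot be set against the whole table. The causes were not tested.

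The labels do not describe the dissection, and neither a batch nor a date is given. Counts by symbol do not separate transcripts of one gene, and reads shared by overlapping genes are uncertain. Genes with 20 or fewer reads in every library had an SE of up to 0.30 on the log2 scale.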
